A study of Mus musculus with 179 samples.

Results

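The 7 genes described here make proteins of the zymogen granule of the pancreatic acinar cell: the lectin Zg16, the granule proteins Sycn and Gp2, and the fat-digesting set Clps, Pnlip, Pnliprp1 and Cel. They are 7 of the 32100 genes in a table of molecule counts, a named list chosen by their UMI levels in the same table: 1 cell, Acinar52, was far richer in digestive enzymes than the rest, and Zg16 or Sycn was high in Acinar98 and Acinar22, where few proteases other than Ctrb1 were counted. The levels with and without Acinar52 and the comparison with proteases in Acinar22 and Acinar98 are therefore descriptions, with no test. All cells form 1 group: wild-type C57BL6 mouse acinar cells, freed from exocrine pancreas, enriched on a density gradient and kept for 9 days as organoids in Matrigel. Each cell is a library of its own made with Smart-seq3, a full-length method that counts molecules through unique molecular identifiers (UMIs), and no animal or culture is named for any cell.

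A median of 165267 UMIs was counted per cell (range 3258 to 329522), and no cell was a copy of another. The labels call the cells acinar, but Ptf1a, the transcription factor that defines the acinar fate, had 29 UMIs in the whole set and all 29 were in Acinar52, whereas the duct keratins Krt7 and Krt19 had a UMI in every cell. The name acinar is used below only as part of the names of the cells. A level is the CPM of a gene, its UMIs scaled to the total UMIs of the same cell or pool, given with the exact 95% Poisson interval, and a share has the exact 95% binomial (Clopper-Pearson) interval. For a count of 0 the limit given is that of 3 counts, a fixed floor in place of the interval. Intervals and floors cover counting error only and say nothing of the spread between cultures.

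In the pancreas, acinar cells store digestive proteins in zymogen granules, condensed secretory vesicles that fuse with the apical membrane when the gland is stimulated. The granule carries proteases as inactive precursors together with lipases, amylases, lectins and granule membrane proteins. Dietary triglyceride is split by the lipase Pnlip, which needs the small cofactor colipase (Clps) to stay on fat droplets coated with bile salts, while Cel, the bile salt dependent lipase, also splits cholesterol esters. Pnliprp1 is a close relative of Pnlip with little known lipase activity of its own. Zg16 is a small jacalin-type lectin first found in pancreatic granules and also made by goblet cells of the gut. Sycn (syncollin) sits on the inner face of the granule membrane and takes part in granule fusion. Gp2 is the main glycoprotein of the granule membrane and also marks M cells of the gut.

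In the mouse assembly GRCm38, 3 of the genes lie apart from each other on chromosome 7: Zg16 at chr7:127050156-127087328 on the minus strand, Gp2 at chr7:119442537-119459285 on the minus strand, and Sycn at chr7:28540885-28542209 on the plus strand. The paralogs Pnlip (chr19:58652498-58681788) and Pnliprp1 (chr19:58728887-58744169) are neighbours on the plus strand, Clps is at chr17:28558149-28560766 and Cel at chr2:28555795-28563403, both on the minus strand. A pair of genes with different patterns across the cells show how the start regions of the set differ. Sycn was high in Acinar52 and in a few other cells, and Pnliprp1 was high in Acinar52 alone. Their promoters, 250 bases before to 50 after the start in RefSeq annotation of GRCm38.p6, at chr7:28540635-28540934 and chr19:58728637-58728936, both on the plus strand, are shown 5′ to 3′ with 2 motifs in capitals. These are the E-box CANNTG, bound by PTF1A and by MIST1, and TGGGAA or its reverse TTCCCA, the RBPJ part of the PTF1 site.
Sycn: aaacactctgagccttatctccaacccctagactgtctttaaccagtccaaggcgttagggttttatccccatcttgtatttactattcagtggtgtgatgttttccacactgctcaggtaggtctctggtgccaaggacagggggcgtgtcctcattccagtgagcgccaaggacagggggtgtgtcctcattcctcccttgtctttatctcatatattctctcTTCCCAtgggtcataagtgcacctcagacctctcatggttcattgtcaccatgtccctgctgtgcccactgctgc
Pnliprp1: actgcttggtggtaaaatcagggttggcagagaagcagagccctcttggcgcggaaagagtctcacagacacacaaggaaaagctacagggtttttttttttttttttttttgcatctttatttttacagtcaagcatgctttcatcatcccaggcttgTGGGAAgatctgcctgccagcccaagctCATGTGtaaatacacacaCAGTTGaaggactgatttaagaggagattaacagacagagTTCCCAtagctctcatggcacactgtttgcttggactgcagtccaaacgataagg
The Sycn promoter held 0 E-boxes and 1 RBPJ motif, 25 bases before the start. The Pnliprp1 promoter held 2 E-boxes and 2 RBPJ motifs, and 1 of these RBPJ motifs lay 5 bases before the start. Promoters were found for 5 of the 7 genes, all but Zg16 and Clps. Gp2 held 2 E-boxes and 2 RBPJ motifs, Cel 5 and 1, and Pnlip 0 and 1, so each of the 5 held at least 1 RBPJ motif, with no overlap between motifs. Over 32851 promoters of the same length, counted on both strands, 72.3% held an E-box, 25.6% an RBPJ motif and 18.96% both. A match of this kind is a run of letters and no measure of binding.

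The fat-digesting genes stood almost wholly in Acinar52. Clps, the lipase cofactor, had 5465 UMIs there, 30388 CPM (29588 to 31205), against 19.2 CPM (17.6 to 20.95) over all other cells pooled. Pnliprp1 had 4534 UMIs or 25211 CPM in Acinar52, against 79 UMIs or 2.86 CPM (2.26 to 3.56) in all other cells. The highest single cell outside Acinar52 was Acinar165 with 6 UMIs, 52.4 CPM, so no second cell came near.
Cel had 64 UMIs or 356 CPM in Acinar52, against 11 UMIs in 7 other cells, 5 of them in Acinar134. Pnlip, the main triglyceride lipase of the adult gland, had 17 UMIs or 94.5 CPM (55.1 to 151.3) in Acinar52, against 1 UMI, in Acinar173, in all the other cells. Of the lipase family members in the list, the relative Pnliprp1 was thus counted far more often than Pnlip itself in the same cell, 4534 against 17 UMIs.
The lipase paralogs can share reads, and the sources used here do not say how such reads were assigned. A UMI stands for 1 molecule, so levels of different genes are compared here without a length term.

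The granule proteins were spread differently. Sycn had 1199 UMIs or 6667 CPM (6295 to 7055) in Acinar52, against 743 UMIs or 26.9 CPM (24.98 to 28.9) in all other cells. Of those 743 UMIs, 336 were in Acinar22 and 89 in Acinar98, Acinar55 lay between them, and Acinar155, next by UMIs, had 13. The first 3 of these cells stood at 1507 CPM in Acinar22, 728 CPM in Acinar55 and 1862 CPM in Acinar98, so Acinar98 was the highest of them per molecule counted. All remaining cells, without Acinar52, Acinar98, Acinar22, Acinar55 and Acinar155 and called the low cells below, held 160 Sycn UMIs, 5.92 CPM (5.04 to 6.91), with at most 6 UMIs in a cell.
Zg16 was the only gene of the 7, apart from Gp2 with its 3 UMIs, whose highest cell was not Acinar52. It had 434 UMIs in Acinar98, 9082 CPM, and 87 UMIs in Acinar52, 484 CPM (387 to 597). Acinar22 had 2 Zg16 UMIs, Acinar55 and Acinar155 had 0, and the low cells had 31, or 1.15 CPM (0.779 to 1.63), with at most 4 in a cell.
Gp2 was close to absent from the whole table. It had 2 UMIs in Acinar22, 1 in Acinar81 and 0 in Acinar52, where a count of 0 at 179841 UMIs allows up to 16.7 CPM. The granule membrane gene that accompanies the others in the gland was therefore not detectable in the cell with the most zymogen transcripts. The M cell list, of which Gp2 is no part here, had 8 UMIs in Acinar22, 4 of Tnfaip2 and 4 of Ccl20. These were 17.9 CPM each, against medians of 281 for Tnfaip2 and 6.13 for Ccl20, and the other 4 genes of the list were at 0.

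**Figure D1:**
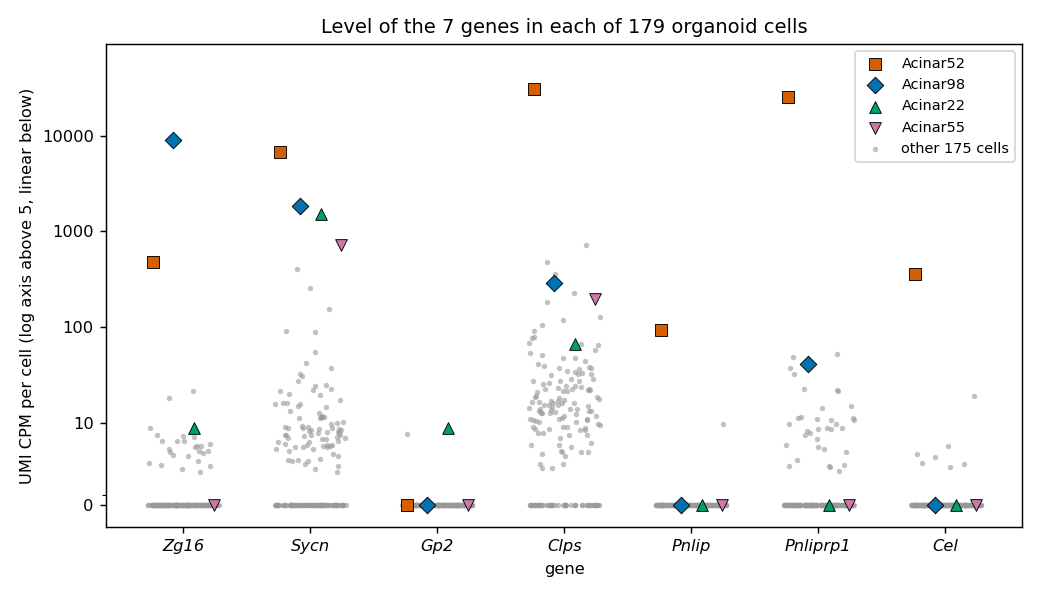
UMI CPM of each of the 7 genes (x axis) in each cell (y axis, logarithmic above 5 CPM and linear below it, so cells with no UMI sit at 0). Coloured symbols are Acinar52, Acinar98, Acinar22 and Acinar55, and grey dots are all other cells. Acinar52 is the highest cell for Sycn, Clps, Pnlip, Pnliprp1 and Cel, whereas Acinar98 is the highest for Zg16.

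Added up, the 7 genes had 13202 UMIs, of which Acinar52 held 11366 or 86.1% (85.5 to 86.7%). With all cells pooled they stood at 474 CPM (466 to 483), and without Acinar52 at 66.4 CPM (63.4 to 69.5). The median cell had 21.1 CPM (quartiles 10.2 and 40.6). Dropping Acinar52 lowered the pooled level 58.02 times for Pnliprp1, 17.9 times for Pnlip, 11.2 times for Clps, 6.77 times for Cel, 2.60 times for Sycn and 1.18 times for Zg16.
A concentration of this kind was rare in the table. Among 14997 genes with at least 50 UMIs, the cell holding most of a gene's UMIs held a median of 3.32% of them, and in 1.61% of genes it held over 50%. The corresponding shares were 98.3% for Pnliprp1, 94.4% for Pnlip with its 18 UMIs, 91.1% for Clps, 85.3% for Cel and 61.7% for Sycn, each in Acinar52, and 78.3% for Zg16 in Acinar98.
The make-up of the 7 genes also differed between these cells. Clps and Pnliprp1 made up 48.1% and 39.9% of the 11366 UMIs in Acinar52, and Sycn 10.5%. In Acinar98 Zg16 made up 80.5% of 539 UMIs and Sycn 16.5%. In Acinar22 Sycn made up 94.6% of 355 UMIs and in Acinar55, at 923 CPM of the 7 genes, 78.8%, with Clps as all of the rest in Acinar55 and 15 of the other 19 UMIs in Acinar22. The low cells held mostly Clps, 61.98% of 739 UMIs. The plot of the make-up shows these 5 profiles side by side, without the 19 UMIs of Acinar155.

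**Figure D2:**
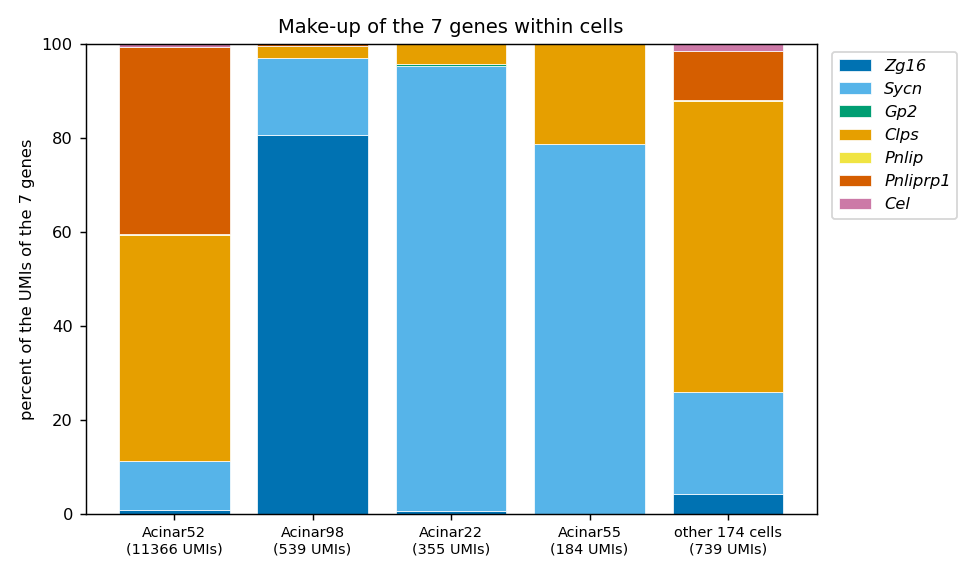
Percent of the UMIs of the 7 genes (y axis) that each gene held within Acinar52, Acinar98, Acinar22, Acinar55 and the low cells pooled, labelled other cells (x axis, with the number of UMIs behind each bar). Clps and Pnliprp1 fill most of the Acinar52 bar, Zg16 fills 80.5% of the Acinar98 bar, and Sycn fills 94.6% of the Acinar22 bar.

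Whether the granule and lipid genes went together with the digestive proteases was then asked cell by cell, with a list of 15 protease genes of the pancreas. It holds trypsinogens such as Prss1, Prss2, Try4 and Try5, chymotrypsinogens such as Ctrb1 and Ctrl, elastases such as Cela1 and Cela2a, and carboxypeptidases such as Cpa1. In Acinar52 both sets were high: the 7 genes had 63200.3 CPM and the proteases 223353 CPM, and each of the 15 proteases had a UMI, from 1 UMI for Prss3 to 15323 for Ctrb1. The 7 genes held 22.1% (21.7 to 22.4%) of the UMIs of both sets together in that cell.
In Acinar98 the 7 genes had 539 UMIs, against 30 protease UMIs, all of them Ctrb1, and the other 14 proteases were at 0. A count of 0 at its 47789 UMIs allows up to 62.8 CPM for each. Prss2, the highest of these 14 in the low cells, stood there at 14.2 CPM (12.8 to 15.7). The counts of 0 therefore do not set Acinar98 below the low cells. The 7 genes held 94.7% (92.6 to 96.4%) of both sets.
Acinar22 had 355 UMIs of the 7 genes and 274 of proteases, of which 268 were Ctrb1, 2 Prss2, 2 Cela1, 1 Try5 and 1 Cpa1, with the other 10 at 0. The share was 56.4% (52.5 to 60.4%). Acinar98 and Acinar22 were 2 of the 5 cells in which the 7 genes exceeded the proteases. In the other 3 (Acinar119, Acinar183 and Acinar177) at most 2 protease UMIs were counted.
Acinar55 went the other way. It had the highest protease level outside Acinar52, 21449 CPM with 3943 of 4274 UMIs from Ctrb1, and 923 CPM of the 7 genes, a share of 4.13% (3.56 to 4.75%). In Acinar155 it was 1.32% (0.796 to 2.05%), from 19 UMIs of the 7 genes and 1421 of proteases. The low cells pooled stood at 15.3% (14.3 to 16.3%), below Acinar52 and far below Acinar98 and Acinar22.

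**Figure D3:**
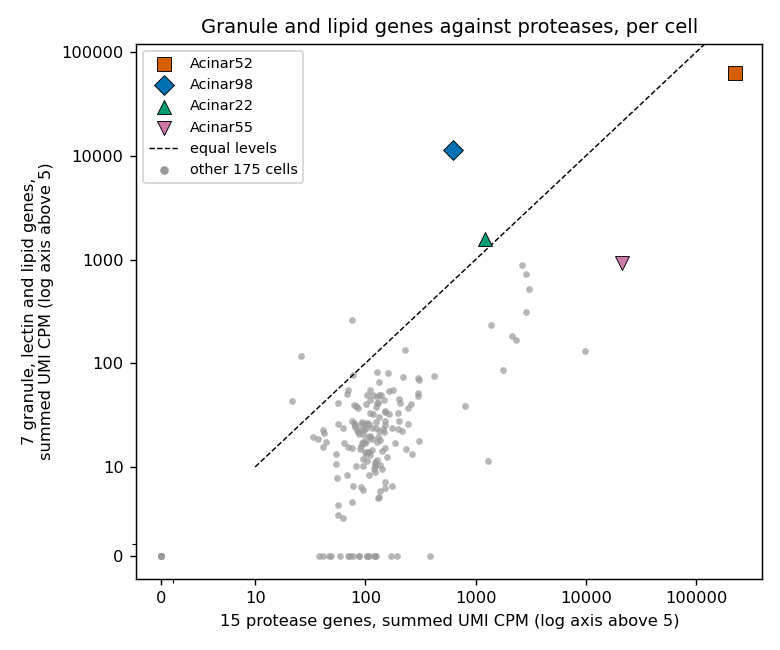
Summed UMI CPM of the 7 genes (y axis) against that of the 15 proteases (x axis) in each cell, both axes logarithmic above 5 CPM and linear below. The dashed line marks equal levels. Acinar98 and Acinar22 lie above the line, Acinar52 lies below it at the upper right, and Acinar55 lies far below it.

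Set against Ctrb1, the protease that 97.2% of cells carried, the 3 genes with most UMIs outside Acinar52 gave 3 pictures. Sycn made up 74.8% (66.01 to 82.3%) of Sycn and Ctrb1 UMIs in Acinar98 and 55.6% (51.6 to 59.6%) in Acinar22. It made up 7.26% (6.87 to 7.66%) in Acinar52 and 3.55% (3.001 to 4.16%) in Acinar55, close to the 4.83% (4.12 to 5.61%) of the low cells. The Acinar98 and Acinar22 intervals lay apart from all the others and from each other.
Clps, against Ctrb1 in the same way, made up 31.8% (18.6 to 47.6%) in Acinar98 from 14 UMIs, 26.3% (25.7 to 26.9%) in Acinar52, 5.300% (2.997 to 8.59%) in Acinar22 and 0.979% (0.697 to 1.34%) in Acinar55, against 12.7% (11.6 to 13.8%) in the low cells. Acinar98 and Acinar52 could not be told apart by this share. Zg16 made up 93.5% (90.9 to 95.6%) in Acinar98 and under 1% in Acinar52, Acinar22 and the low cells. The cells rich in Sycn relative to Ctrb1 were thus not all rich in Clps or Zg16.

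**Figure D4:**
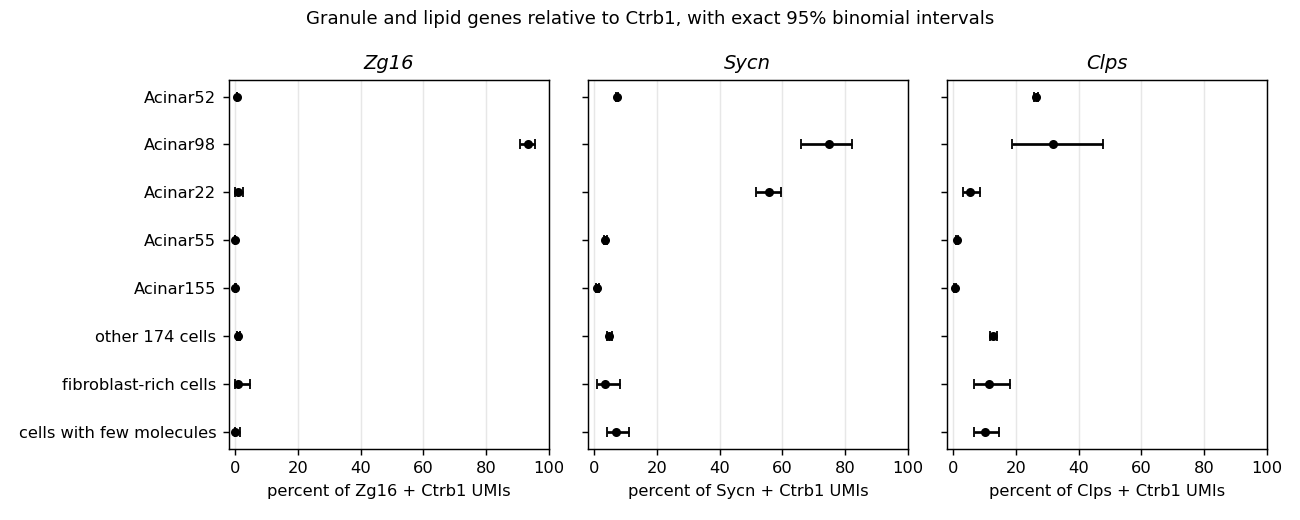
Percent of the summed UMIs of a gene and Ctrb1 that came from the gene (x axis), for Zg16, Sycn and Clps, in 5 single cells and in 3 pooled sets of cells (rows). Points are shares and bars are exact 95% binomial intervals. The 6 fibroblast-rich cells and the 6 cells with few molecules are also among the low cells, labelled other cells. Sycn stands at 74.8% in Acinar98 and 55.6% in Acinar22 and below 10% in each other row.

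The low level of these genes was also read in cells of another kind. In 6 cells rich in fibroblast genes (at least 1000 CPM of a 10-gene list), a type not known to make zymogens, the 7 genes stood at 24.3 CPM (15.9 to 35.7), against 27.3 CPM (25.4 to 29.4) in the low cells, which include them, and held 15.5% (10.4 to 21.8%) of both sets, against 15.3%. Sycn made up 3.33% (0.916 to 8.31%) of Sycn and Ctrb1 UMIs in the fibroblast-rich cells, and Clps 11.5% (6.55 to 18.2%) of Clps and Ctrb1, so both intervals overlapped those of the low cells. Krt7 was present in all of these 6 cells and lower in the median, at 159.8 CPM, against a median of 3411 in all other cells. It ranged from 25.04 to 2658 CPM over the 6 cells, so it was not low in each. The part of epithelial RNA in their values was not tested.
Every cell with at least 40000 UMIs was thinned to that number, which left out 18 cells. A Clps UMI was then found in 37.9% (30.4 to 45.9%) of cells, unthinned 72.05%, a Sycn UMI in 20.5% (14.5 to 27.6%), unthinned 52.8%, a Pnliprp1 UMI in 9.32% (5.31 to 14.9%), unthinned 22.98%, and a Zg16 UMI in 8.07% (4.37 to 13.4%), unthinned 18.01%. After thinning Gp2 was found in 0 cells, which the floor of 3 counts puts at up to 1.86%.
Of the 6 fibroblast-rich cells, with a median depth of 169027 UMIs, 3 had a Clps UMI after thinning, 1 a Sycn UMI, 1 a Pnliprp1 UMI and 0 a Zg16 UMI, where the floor is 50%, against 37.4%, 20.6%, 9.03% and 8.39% of the other thinned cells at a median depth of 171929. For Sycn and Pnliprp1 the interval over the 6 cells ran from 0.421 to 64.1% and for Clps from 11.8 to 88.2%, so no gene could be set above or below this background. Presence of 1 UMI of these genes is therefore not read as expression.
After Acinar52, Acinar98, Acinar22 and Acinar55, the next cells by summed level, Acinar125 (884 CPM), Acinar171 (721), Acinar167 (519) and Acinar73 (310 CPM), had 12442, 6936, 19261 and 19385 UMIs in all. Each had 5 to 11 UMIs of the 7 genes, and they belong to 6 cells in which few molecules were counted, defined by a gene number under 5000 and a ratio of reads to UMIs above 3. Over these 6 cells the 7 genes held 12.9% (9.41 to 17.2%) of both sets, close to the low cells.

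Acinar98, the Zg16 cell, is one of the shallower cells, with 47789 UMIs from 6711 genes. Genes were called raised in a cell when their CPM was at least 10 times that of the other cells pooled without Acinar52 and the cell had at least 10 UMIs. The rule called 0.427% of 20125 genes in Acinar98, and 3 of the 6 members with enough UMIs to be considered: Zg16, with 434 UMIs, against 33 in all the other cells pooled, Sycn 78.6 times and Clps 15.6 times the other cells. None of 12 proteases considered was called there. Ctrb1 was at 1.98 times the pooled other cells, of whose Ctrb1 much lay in Acinar55, and at 7.22 times the median cell (628 CPM in Acinar98, against 86.9 CPM). The summed proteases of Acinar98 were the 15th highest of all cells. Zg16 stood first of all genes in this cell by that ratio, 7595 times.
The other leading genes of Acinar98 included genes of mucous epithelium. Gkn3 had 12 of its 13 UMIs outside Acinar52 there and Pla2g10os 25 of 28. Lypd8, a secreted protein of colonic epithelium, was 344 times the other cells, 2210407C18Rik 310 times, Clca1, a protein of goblet cell mucus, 291 times and the gastric gene Gkn1 166.7 times, with S100g, Atp8a2 and Gm3880 between Clca1 and Gkn1 among the first 10.
Because Zg16 is also a goblet cell gene, the goblet list was read in the same cell. Clca1 stood at 12869 CPM, Spink4 at 2197 and Agr2 at 963 CPM in Acinar98, whereas Muc2, Tff3 and Fcgbp were at 0. A count of 0 there allows up to 62.8 CPM, against medians of 0 for Muc2, 75.4 for Tff3 and 14.5 for Fcgbp. Spdef, a goblet transcription factor, had 3 UMIs. The goblet list summed to 16092 CPM in Acinar98, the second highest of all cells, against a median of 203 in the cells other than Acinar52, Acinar98 and Acinar22. The acinar factors Ptf1a, Rbpjl, Bhlha15 and Nr5a2 were at 0 in Acinar98, against medians of 0, 0, 0 and 18.6 CPM. With the floor at 62.8 CPM, these counts of 0 do not set Acinar98 below other cells. The others of the list, Gata4 and Xbp1, stood at 104.6 and 62.8 CPM, from 5 and 3 UMIs, against medians of 0 and 85.2. The sum of the list, 167.4 CPM, was above the median of 121.3. Krt19 stood at 3767 CPM and Krt7 at 251 CPM in the same cell.

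Acinar22 was among the deeper cells, with 222976 UMIs from 11139 genes. The rule called 0.706% of 20125 genes there and 1 of the 6 members considered, Sycn, at 101.5 times the other cells. Clps was at 3.57 times, and Cel, Pnlip and Pnliprp1 had no UMI. None of 12 proteases considered was called, with Ctrb1 at 3.87 times the pooled other cells and 13.8 times the median cell. The summed proteases of Acinar22 were the 13th highest of all cells. Pnliprp2, a lipase of the same family that is not among the 7 genes, was called too: it had 711 UMIs or 3189 CPM in Acinar22 and 1716 CPM in Acinar55, against 272 CPM in Acinar98 and a median of 9.31 CPM in the cells other than Acinar52, Acinar98 and Acinar22. Within the lipase family, Acinar22 and Acinar55 thus carried Pnliprp2 with 0 UMIs of Pnliprp1, whereas Acinar52 carried 25211 CPM of Pnliprp1 and 6706 of Pnliprp2.
The leading genes of Acinar22 were the gastric genes Gkn2, 459 times, and Gkn1, 264 times the other cells, Cldn18, a tight junction gene of stomach, 149.2 times, and the interferon-induced genes Ifit3, 349 times, Ifit1bl1, 265 times, Rsad2, 190.6 times and Oas2, 130 times. Gm3880, AW112010 and Apol7a completed the first 10. In Acinar52 the rule called 0.477% of genes and 6 of the 6 members considered, together with 12 of 12 proteases.

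The cells that led for Sycn outside Acinar52 were the cells that led for a list of 6 secreted genes of gastric mucous cells (Tff1, Tff2, Gkn1, Gkn2, Gkn3 and Muc5ac), here called gastric pit genes. Acinar98 had 112222 CPM of them, Acinar22 82574 and Acinar55 26337 CPM, the first 3 of all cells, against a median of 422 in the cells other than Acinar52, Acinar98 and Acinar22. Acinar52 had 1918 CPM. Gkn1 stood at 42081 CPM in Acinar98 and 27465 in Acinar22 but at 15.1 CPM in Acinar55, where Tff1 (15693 CPM) and Muc5ac (10579 CPM) made up the list. Zg16 followed the list in Acinar98 alone, with 8.97 CPM in Acinar22 and 0 in Acinar55.
A level of 5000 CPM of the list, chosen after seeing the data, was reached by 17 cells other than Acinar52, and 13 cells lay within 1.5 times of it on either side. Sycn stood at 398 CPM (367 to 431) in these 17 cells and at 5.51 CPM (4.65 to 6.49) in the cells under it. Without Acinar98 and Acinar22 the upper range stood at 140.9 CPM (120.7 to 163.45), and without Acinar55 too at 27.999 CPM (18.8 to 40.2) from 29 UMIs. The same 14 cells also had more Ctrb1, 1686 CPM (1608 to 1767), against 107.002 CPM (103.1 to 111.04), but much of both came from Acinar155. Without that cell as well, Sycn stood at 17.9 CPM (10.3 to 29.1) and Ctrb1 at 401 CPM (361 to 445) in the 13 cells left. Of the 16 Sycn UMIs behind this level, Acinar125 and Acinar73 held 5 each, Acinar179 held 2 and Acinar161 held 1. These cells belong to the 6 cells with few molecules, in which Ctrb1 and Clps were high too. The other Sycn UMIs were 2 in Acinar157 and 1 in Acinar175, so the level does not show more Sycn outside the cells with few molecules. The median depth of the 14 cells, with Acinar155 at 143532 UMIs among them, was 48924 UMIs, against 168790 in the cells under the cut. The part of depth, or of 2 cells in 1 well, in these patterns was not tested.

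**Figure D5:**
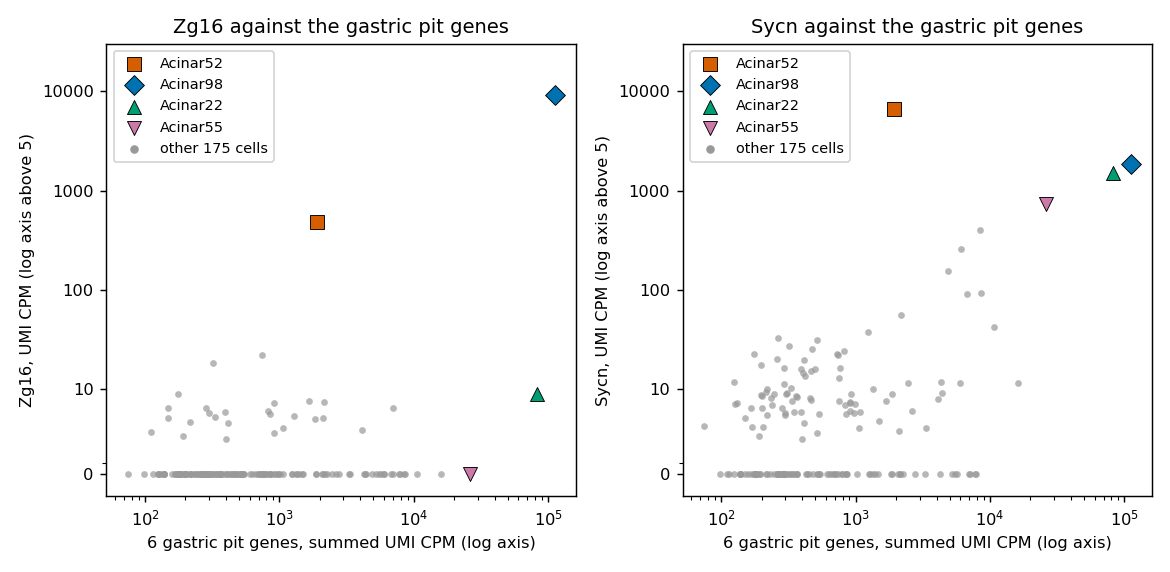
UMI CPM of Zg16 (left) and Sycn (right) on the y axes (logarithmic above 5 CPM, linear below) against the summed UMI CPM of 6 gastric pit genes (x axis, logarithmic), 1 symbol per cell. Acinar98, Acinar22 and Acinar55 lie at the right end and are the highest for Sycn after Acinar52, whereas Acinar55 has no Zg16 and Acinar22 has 8.97 CPM of it.

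Across the 160 cells with at least 40000 UMIs other than Acinar52, the log2(CPM + 10) of Zg16 and of the proteases had a Pearson r of 0.14 and a Spearman rho of 0.13. For Sycn r was 0.54 and rho 0.26, for Clps 0.44 and 0.31, and for Pnliprp1 0.19 and 0.17. These cells share the culture condition and any free RNA, so the values are descriptions with no test. With Acinar52 included r was 0.37 for Zg16 and 0.68 for Sycn.
The Pearson r for Sycn rested on few cells, whereas its rho was 0.23 and 0.20 in the same 2 steps. Without Acinar98 and Acinar22 this r was 0.54, and without Acinar55 and Acinar155 as well 0.21, and for Zg16 the same steps gave -0.032 and -0.0031. The r between Zg16 and Sycn was 0.55 over the 160 cells and 0.13 without Acinar98 and Acinar22. Against the gastric pit genes, r of Sycn was 0.51, then 0.28 and 0.083 in the same 2 steps.
Over the same 160 cells, the genes whose pattern was most like that of Zg16, among 14930 genes, were Lypd8 (r = 0.75), Gm3880 (0.71), Sult1b1 (0.64), 9530036O11Rik (0.61) and Il18 (0.61). With Acinar52 included they were Lypd8 (0.66), Sycn (0.66), Sult1b1 (0.65), Gm3880 (0.63) and the galectin Lgals12 (0.60). The genes most like Sycn were Psca (0.70), Sult1b1 (0.69), Fer1l6 (0.69), Nt5e (0.68) and Gm3880 (0.67). Leaving out Acinar98 and Acinar22 took Psca to 0.45, Fer1l6 to 0.40 and Nt5e to 0.48, whereas 9530036O11Rik and Il18 stood at -0.033 and 0.0043 with Zg16. The likeness of these 2 genes to Zg16 was thus not seen once Acinar98 and Acinar22 were left out together, a step that does not separate the 2 cells. In Acinar98 Zg16 had 434 UMIs, 9530036O11Rik 14 and Il18 22, and in Acinar22 they had 2, 1 and 70. Lypd8, Gm3880 and Sult1b1 fell under the 50 UMIs needed once these 2 cells were left out, so no value could be given for them.

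A list of genes linked to granules and their release was, when summed, more even over these cells than the 7 genes. It held 20 genes, of which 19 were found. They summed to 2825 CPM in Acinar52, 3076 in Acinar98 and 3041 in Acinar22. The median was 1746 CPM (quartiles 1241 and 2851) in the cells other than these 3. In each of the 3 cells 9 of the 19 genes were above their median and 7 in Acinar52, 5 in Acinar98 and 6 in Acinar22 were below it. Outside Acinar52 most of the sum was Dmbt1, Muc1 and Vamp8, which duct epithelium also makes. Dmbt1 and Muc1, at 1120.5 and 608 CPM of the 2445 CPM pooled without Acinar52, are not fusion genes. The sum is therefore no measure of the fusion genes alone. Among the fusion genes, the granule Rab Rab27b stood at 133.5 CPM in Acinar52, 314 in Acinar98 and 152.5 in Acinar22, against a median of 43.3 CPM. Rab27a stood at 38.9, 230.2 and 130.06 CPM in the same cells, from 7, 11 and 29 UMIs, against a median of 0. Rab3d, another granule Rab, stood at 139.01 CPM in Acinar52, 125.6 in Acinar98 and 107.6 in Acinar22, against 37.9 CPM. Vamp8, the granule SNARE, stood at 200.2 CPM in Acinar52 and 900 in Acinar98, against 248 CPM. Among genes of the list below their median in Acinar98 and Acinar22, the syntaxin Stx3 stood at 41.9 and 40.4 CPM, against 48.1 CPM. These Stx3 values came from only 2 and 9 UMIs, and in Acinar52 Stx3 stood at 22.2 CPM from 4 UMIs. Dmbt1 stood at 1479 CPM in Acinar52 but 83.7 in Acinar98 and 40.4 in Acinar22, against 309.8 CPM. The granule membrane gene Cuzd1 had 11 UMIs, all in Acinar52.
A list of other lectins, Reg proteins and inhibitors did not follow 1 pattern. Reg1, a lectin-like secretory protein of acinar cells, had 1192 UMIs or 6628 CPM in Acinar52, 0 in Acinar98 and 2 UMIs in Acinar22, and the trypsin inhibitor Spink1 had 348 UMIs in Acinar52, 0 in Acinar98 and 0 in Acinar22. Lgals3, Lgals4 and Lgals2, galectins of simple epithelia, were the most abundant of the list outside Acinar52, and Itln1 was at 0 in Acinar52, Acinar98 and Acinar22. In Acinar98 Lgals3 stood at 62.8 CPM, below its median of 541.6. Lgals4 and Lgals2 stood at 209.3 CPM each, from 10 UMIs each, above their medians of 104.9 and 57.1.
Most amylase UMIs were in Acinar52. The list of other enzymes summed to 78419 CPM there, led by Amy2a5 at 17849 and Amy2a3 at 17115 CPM, and in Acinar98 to 14 UMIs, 13 of Pnliprp2 and 1 of Amy1. Amy2a5 had 96.1% of its UMIs in Acinar52, whereas Amy1 had 36.9% and Pnliprp2 42.2%. Sycn overlaps the gene Samd4b on the opposite strand, and Samd4b stood at 83.4 CPM in Acinar52, 83.7 in Acinar98, 62.8 in Acinar22 and 85.3 CPM in Acinar55, against a median of 73.3, so it was not high where Sycn was.
Apart from the gastric pit and goblet lists described above, lists of other cell types were read in the same 3 cells. The fibroblast, endothelial and immune lists had 3, 0 and 0 UMIs in Acinar52 and 0 in both Acinar98 and Acinar22, and the gastric chief cell gene Pgc was at 0 in all 3 cells. The endocrine list had 49 UMIs or 272 CPM in Acinar52, above its median of 40.4 CPM, 0 in Acinar98 and 2 in Acinar22. The duct list summed to 4493 CPM in Acinar52, 10609 in Acinar98 and 21079 in Acinar22, against a median of 16430.3 CPM.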

How the data were processed

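UMI counts and read counts were deposited by the authors as raw whole numbers for 32100 Ensembl genes in each cell. Per the submitters' processing notes, STAR, featureCounts, GRCm38 and mm10 were used, versions not named. The collapsing of UMIs and the treatment of shared reads are not given in the sources at hand. Samples were found by the cell names in the rows, and 31985 identifiers had a symbol. All cells were kept, with no filter and no doublet caller, since each sample is 1 cell per the labels. CPM, pooled levels, shares and intervals were computed from UMI counts, and 17 of 1253 values of the 7 genes had reads but no UMI. With 1 group and no named culture, no test was run. The 7 genes, the lists and most settings were chosen with earlier results of these data known. Beside the 7 genes, the text names the 5 genes most like Zg16 and Sycn (at least 50 UMIs), the first 10 raised genes of Acinar98 and Acinar22, the proteases and leading members of the lists. A gene that this rule names is not reported here. Alternatives covered read counts, other cells, weights, pseudocounts, folds and thinning. The rule for raised genes and the ranking of like genes were checked on simulated counts, and the other calculations were not. Tools were scipy 1.17.1, pandas 2.3.3, numpy 2.4.6 and matplotlib 3.10.9 under Python 3.11.15.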

Additional observations from a re-analysis of the deposited data

How the results depend on the processing

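The pooled level of the 7 genes without Acinar52, 66.4 CPM, was 60.7 with read counts, 58.6 over cells with title numbers up to 96, 77.2 over those from 97 and 119.2 with equal weight per cell. It was 46.997 without Acinar98 too, 54.01 without Acinar22 and 60.2 without Acinar55. The share held by Acinar52, 86.1%, was 95.1% with read counts and 92.4% over cells up to number 96. Cells from 97 do not include Acinar52 and give no value. The share of the 7 genes against proteases in Acinar22, 56.4%, was 60.4% with read counts and 98.3% without Ctrb1. In Acinar98 it was 100% without Ctrb1. Leaving out a protease with UMIs can only raise this share, and the low cells were not given the same step. These values therefore do not rank the split from Ctrb1 against that from the other proteases. At 5 and 30 times in place of 10, 0.775% and 0.234% of genes were called in Acinar98 in place of 0.427%, and 1.41% and 0.283% in Acinar22 in place of 0.706%. The r of Sycn with the proteases was 0.44 with a pseudocount of 1 CPM and 0.34 without Acinar55, Acinar98 and Acinar155, and that of Zg16 was -0.032 without Acinar98 and Acinar22, an alternative added after seeing the data. For single genes, 25 values moved and 52 did not. Zg16 without Acinar52 stood at 1.75 CPM over cells up to number 96 and 37.8 from 97, where Acinar98 lies. Limits are depth (1 UMI is 20.9 CPM in Acinar98 and 5.56 in Acinar52) and 1 cell per pattern. No paired analysis was possible because all cells form 1 group.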

Other observations

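Reads per UMI differed between the cells that carried these genes. Over all genes it was 5.17 in Acinar52 and 1.57 in Acinar98, and for Sycn it was 7.22 in Acinar52 and 1.55 in Acinar98. Zg16 had 4.92 reads per UMI in Acinar52 and 1.498 in Acinar98. A sum over reads in place of UMIs therefore gives Acinar52 more weight for these genes.

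The 6 cells with few molecules (6936 to 23618 UMIs) had 40 UMIs of the 7 genes, 24 of them Clps and 16 Sycn, with no UMI of Zg16 or Pnliprp1. Their pooled level was 387 CPM (276 to 527), with proteases at 2602 CPM (2300.1 to 2932), against 27.3 and 151.7 CPM in the larger set of low cells that includes them. The cells ranged from 169.4 to 884 CPM for the 7 genes.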
